A study of Mus musculus with 6 samples.

Results

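The creatine, adenylate kinase and AMP deaminase genes are the genes of the energy buffer of muscle, chosen by name: the creatine kinases Ckm, Ckmt2, Ckb and Ckmt1, the creatine transporter Slc6a8, the creatine synthesis enzymes Gatm and Gamt, the adenylate kinase Ak1 and the AMP deaminase Ampd1. Every probe set carrying one of these 9 symbols alone was taken, 13 probe sets of the 34945 on the array with 1 symbol. All 9 genes were found among the 18193 genes so annotated. The list was chosen with earlier results of these data known. RNA of all hind limb muscle was read in 3 wild type mice and in 3 laminin alpha 2 chain deficient mice, which lack or are short of a chain of the laminin that ties muscle fibres to their basement membrane, all 4 weeks old. Each mouse was isolated individually and read on 1 Affymetrix array. The labels name neither the Lama2 allele nor the strain, and no treatment or transgene. The deposited value is a linear signal for each probe set, and the comparison asks how the deficient muscle differs from wild type.

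Creatine kinases move a phosphate between ATP and creatine, so that phosphocreatine refills ATP while a fibre contracts. Ckm, the cytosolic muscle form, sits in part at the M-band of the sarcomere, and Ckmt2, the mitochondrial form of striated muscle, charges creatine beside the mitochondrial inner membrane. When ATP falls, adenylate kinase turns ADP into ATP and AMP, and AMP deaminase removes that AMP as IMP, the first step of the purine nucleotide cycle.

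Upstream sequences of the creatine kinases Ckm, Ckmt2 and Ckb are shown because these genes code for the same reaction and gave unlike values. Those of Ckmt1, which was too dim to test, are not printed, and its 2 windows held 0 E-boxes. They are RefSeq sequences of GRCm38.p6, from the start of the window to the base before the gene's annotated extent, 5′ to 3′ on the gene's own strand. Capitals mark an E-box (CANNTG, the motif of myogenic basic helix-loop-helix factors) or a match to the MEF2 site. Ckm lies on the plus strand at chr7:19410844-19411093 (250 bases), Ckmt2 on the minus strand at chr13:91876924-91877135 (212 bases) and Ckb on the minus strand at chr12:111672339-111672588 (250 bases).
Ckm: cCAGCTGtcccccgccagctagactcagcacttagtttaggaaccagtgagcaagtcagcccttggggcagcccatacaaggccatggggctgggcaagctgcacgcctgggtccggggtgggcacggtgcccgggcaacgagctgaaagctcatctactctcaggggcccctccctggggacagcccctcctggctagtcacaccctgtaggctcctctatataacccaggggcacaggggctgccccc
Ckmt2: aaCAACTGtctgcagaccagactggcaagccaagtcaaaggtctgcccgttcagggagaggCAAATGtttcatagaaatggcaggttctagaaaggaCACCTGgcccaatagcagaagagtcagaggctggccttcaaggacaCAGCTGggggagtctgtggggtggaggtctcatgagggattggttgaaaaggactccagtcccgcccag
Ckb: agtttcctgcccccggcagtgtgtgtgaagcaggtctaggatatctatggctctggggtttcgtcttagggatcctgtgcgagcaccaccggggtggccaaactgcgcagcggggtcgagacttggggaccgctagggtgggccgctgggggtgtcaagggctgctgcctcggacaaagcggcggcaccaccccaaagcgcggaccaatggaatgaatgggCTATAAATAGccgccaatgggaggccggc
The search covered both strands of the whole 250 bases before each start, including the bases of the Ckmt2 window that lie inside the gene's annotated extent and are not printed. Ckmt2 held 4 E-boxes, all within the printed stretch, Ckm held 1 and Ckb held 0. At least 1 E-box stood in 66.2% of 32851 such RefSeq windows, so its presence is common. How many windows held 4 was not counted. Ckb held 1 MEF2 match, CTATAAATAG, which overlaps a TATAAA. Any match to the MEF2 site stood in 2.9% of the windows. These are matches of letters and no measure of binding. Of the 9 genes, 7 had a RefSeq window in the table used here.

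Signals are in the array's own units and are comparable between arrays for 1 probe set, not between probe sets. Array medians lay between 20.0 and 26.1. A log2 fold change is the deficient minus the wild type mean of log2(signal + 16), and the number of arrays limits their precision. Genes were tested with limma over all 13105 genes above a dimness filter, each by its brightest probe set, with Benjamini-Hochberg adjustment, and "rose" and "fell" are kept for an adjusted p under 0.05. Lama2, the check of the labels, read 429, 416 and 326 in wild type and 82.0, 31.1 and 140 in deficient muscle (log2 fold change -2.17, SE 0.37, adjusted p = 0.0207). That call was lost without wild type replicate 1 or 2 or deficient replicate 1 (adjusted p = 0.101, 0.0821 and 0.0585). Since the allele is unnamed, it is unknown whether the Lama2 probe set covers the changed stretch.

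Beyond genotype the libraries differed in other ways. Hair follicle markers summed to 1837 and 734 in wild type replicates 1 and 2, and to 98.3 or less in the other libraries. The Y-linked gene Eif2s3y read above 100 in wild type and deficient replicates 1 and 2, and 10.7 and 9.1 in replicates 3. The ratio of 5 prime to 3 prime actin control signal was 1.04 to 1.15 in wild type and 0.51 to 0.819 in deficient libraries, while that of Gapdh overlapped (0.961 to 1.19 against 0.886 to 1.15). The summed signal of 9 skeletal fibre markers (Acta1, fast myosins, troponins and others) was 80591 in deficient replicate 1 and between 105007 and 111543 in the other libraries. The Y-linked signal was split alike in both groups, and differences within each stratum are given beside the results. Results without wild type replicates 1 and 2 or without deficient replicate 1 are given for some genes only. The absence of such a value does not mean that nothing changed. The actin ratio separated the groups, so its part in the results cannot be told apart from genotype here and was not tested.

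Of the 9 genes, 2 fell in deficient muscle, Ampd1 and Ckmt2, 0 rose, 6 did not pass and Ckmt1 was too dim to test. Over all genes tested, 1.47% fell, 1.30% rose and 2.76% changed in either direction. An unadjusted p under 0.05 was reached by 4 of the 8 tested, against 18.9% of all genes. Without wild type replicate 1 or 2, 0 of the 8 were called, and without wild type replicate 3 or deficient replicate 1, 1 was. The 2 that fell act at the mitochondrial end of the creatine shuttle and at the removal of AMP. The median log2 fold change of the 8 tested was -0.34, against 0.02 for all genes, with 5 of 8 negative against 47.5% of all genes. In 4 of the 8 every deficient value lay below every wild type value, as in 12.4% of all genes, and in 1 every deficient value lay above, as in 12.3%, and 24.7% of all genes did not overlap in either direction. By probe set, 3 of 11 were called, against 1.42% of all, and 6 of 11 did not overlap, against 21.8% of all. Of the 11, 1 was higher without overlap, against 10.7% of all probe sets. As the genes were chosen with earlier results of these data known, these shares describe the set and do not test it. In whole muscle, fewer cells of a type and less RNA per cell cannot be told apart.

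**Figure D1:**
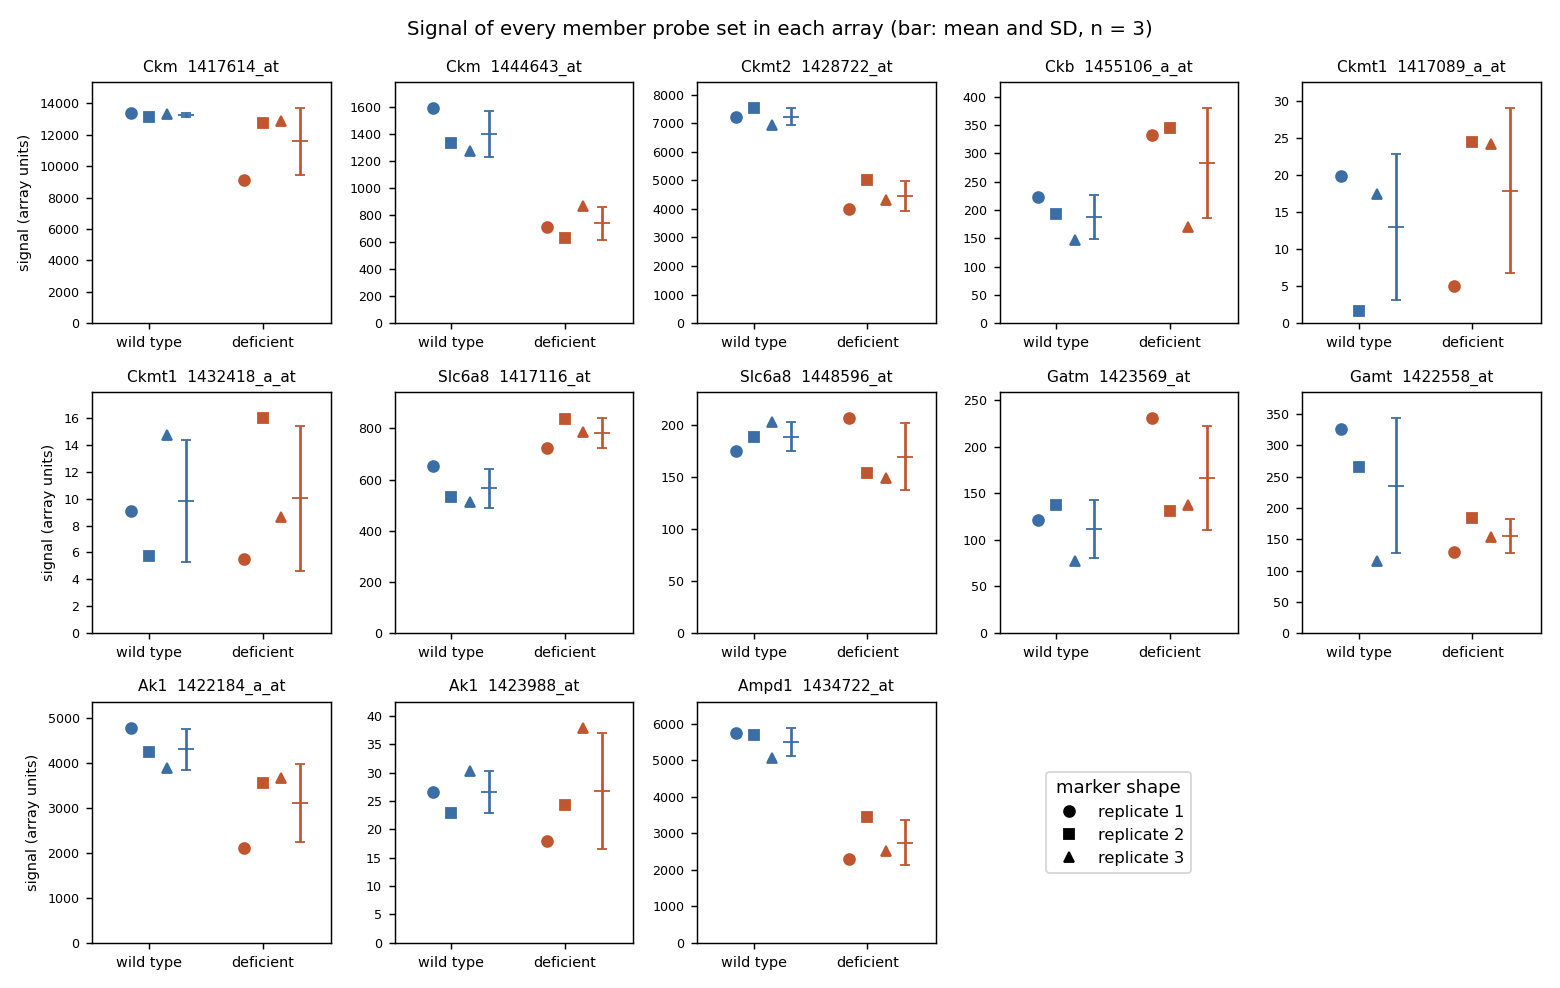
Signal in array units (vertical axes, from 0, each panel on its own scale) of the 13 probe sets in the 3 wild type (blue) and 3 deficient (orange) arrays, with marker shape for the replicate number and a bar for the mean and SD. Ampd1, Ckmt2 and both Ckm probe sets have every deficient point below every wild type point, while Ckb, Gatm and Gamt overlap.

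Ckmt2, the mitochondrial creatine kinase of striated muscle, read 7216, 7524 and 6922 in wild type and 3990, 5018 and 4315 in deficient muscle. The highest deficient value was well below the lowest wild type value. The mean fell from 7221 ± 301 to 4441 ± 525 (SD, n = 3 per group), to 0.615 of wild type. Its log2 fold change was -0.70 (SE 0.13, 95% interval -0.999 to -0.41, limma adjusted p = 0.0266). The difference was -0.72 within the libraries with Y-linked transcripts and -0.68 between the 2 without. The call was lost without wild type replicate 1, 2 or 3 (adjusted p = 0.122, 0.128 and 0.064) and without deficient replicate 1 (0.0536), with fold changes between -0.73 and -0.63, and with no dimness filter (0.0725) or no intensity trend (0.101).

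Ckm, the cytosolic muscle form, was read by a pair of probe sets that moved by different amounts. The brighter, 1417614_at, ranked 9 of 45101 by mean signal and read 13392, 13130 and 13306 in wild type against 9132, 12744 and 12847 in deficient muscle. Deficient replicate 1 stood far below the rest, and the other deficient values were just under the wild type range. Its log2 fold change was -0.22 (SE 0.14, 95% interval -0.54 to 0.11, limma adjusted p = 0.459), and -0.05 without deficient replicate 1. Under quantile normalization it was -0.04, and -0.57 when both probe sets were averaged (adjusted p = 0.0785).

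The dimmer Ckm probe set, 1444643_at, read 1591, 1337 and 1275 in wild type and 713, 633 and 870 in deficient muscle. All deficient values were below all wild type values, as in 11.1% of the 27003 probe sets tested. In a fit over all of these, where 0.826% fell, it had a log2 fold change of -0.91 (SE 0.18, limma adjusted p = 0.0448). That call was lost under median centring (adjusted p = 0.0597), quantile normalization (0.0536) and without 5 of the 6 libraries, the exception being deficient replicate 3. It was also lost with no dimness filter (0.0648) and with no intensity trend (0.115). The highest with 1 library left out was 0.184, without wild type replicate 1. The gap between the brighter and the dimmer probe set widened from 3.06, 3.28 and 3.37 on the log2 scale in wild type to 3.65, 4.30 and 3.86 in deficient arrays, without overlap. So the size of the Ckm difference depended on which probe set was read. The 5 prime to 3 prime actin ratio also separated the groups, and its part in this gap cannot be told apart from genotype. The position of either probe set in the transcript is not stated in the labels or files.

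Ckb, the brain type of cytosolic creatine kinase, which is also made by myoblasts and many other cells, did not pass the test. It read 224, 194 and 146 in wild type and 332, 345 and 170 in deficient muscle. Deficient replicates 1 and 2 were above all wild type values, and deficient replicate 3 lay among them. The log2 fold change was 0.51 (SE 0.28, 95% interval -0.12 to 1.14, limma adjusted p = 0.366), so the interval holds both no change and a doubling. It was 0.82 without deficient replicate 3 (adjusted p = 0.0586), 0.34 without deficient replicate 2 (0.645) and 0.365 without deficient replicate 1 (0.568). Without wild type replicates 1 and 2 together it was 0.819. Within the libraries with Y-linked transcripts the difference was 0.66, and between the 2 without it was 0.20. The marker lists set beside Ckb here were chosen after their values were seen. In wild type replicates 1, 2 and 3 the macrophage markers summed to 3966, 3156.5 and 2729. The fibroblast markers summed to 21713, 24549 and 14907 there, and the white adipocyte markers to 4533, 3428 and 4887.5. Smooth muscle markers summed to 3659, 3626 and 2292.5 in these wild type libraries, and brown adipocyte markers to 2067, 1045.5 and 2703. In deficient replicates 1, 2 and 3 the macrophage markers summed to 11155, 7958 and 3866 and the fibroblast markers to 23970, 25683 and 19831. The white adipocyte markers summed to 6042, 5841 and 2030, smooth muscle to 2921, 3538 and 2373 and brown adipocyte to 569, 614 and 508. Unlike Ckb, the brown adipocyte sum was higher in every wild type library than in any deficient one. The markers of regenerating fibres and myoblasts ran otherwise, at 3758, 7674 and 5158. So did those of Schwann cells, at 1746.5, 1249 and 1347, and of endothelium, at 988, 767 and 1158. The part of these cells in the Ckb values was not tested.

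Ckmt1, the mitochondrial creatine kinase of tissues other than striated muscle, was near the bottom of the signal range. Its probe set 1417089_a_at read 19.8, 1.7 and 17.4 in wild type and 5.0, 24.4 and 24.2 in deficient muscle. The other, 1432418_a_at, read 9.1, 5.7 and 14.7 in wild type and 5.5, 16 and 8.6 in deficient muscle. Neither passed the dimness filter, which stood at a signal of 13.97, and no change was detectable at these signals.

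Within each array the mitochondrial form lost signal against the brighter Ckm probe set. Ckmt2 minus Ckm was -0.89, -0.80 and -0.94 on the log2 scale in wild type and -1.19, -1.34 and -1.57 in deficient arrays, a mean difference of -0.49 without overlap. Read against the mean of both Ckm probe sets the difference was -0.14 (exact permutation p = 0.4), so it rested on the brighter one. Ckb minus Ckm differed by 0.72 with overlap, from -5.81, -5.97 and -6.36 to -4.72, -5.14 and -6.11. Exact two-sided permutation tests gave p = 0.1 for Ckmt2 and 0.3 for Ckb (0.2 and 0.4 adjusted over 4 such differences), where 0.1 is the smallest that 3 against 3 arrays can give.

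**Figure D2:**
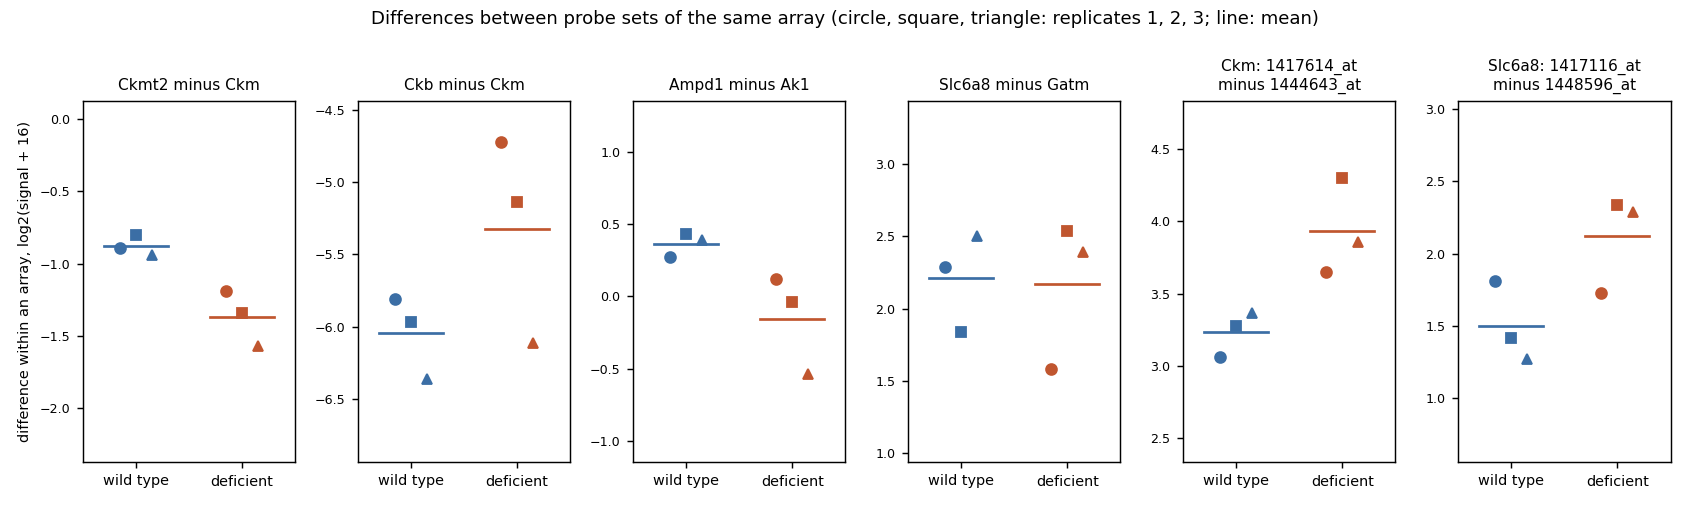
Difference between probe sets of the same array on the log2(signal + 16) scale (vertical axes, each spanning the same range), by group, with marker shape for the replicate and a line for the mean. Ckmt2 minus Ckm and Ampd1 minus Ak1 are lower in every deficient array than in any wild type array, the gap between the Ckm probe sets is wider in every deficient array, and Slc6a8 minus Gatm overlaps.

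Creatine reaches fibres through Slc6a8, the sodium-coupled creatine transporter of the plasma membrane. Its brighter probe set, 1417116_at, read 654, 532 and 511 in wild type and 723, 838 and 787 in deficient muscle. This was the gene with every deficient value above every wild type value. The mean was 565 ± 77.2 in wild type and 783 ± 58.0 in deficient muscle, with a log2 fold change of 0.46 (SE 0.17, 95% interval 0.08 to 0.85). It did not pass (limma adjusted p = 0.186, unadjusted p = 0.0235). The dimmer probe set, 1448596_at, read 175, 189 and 203 in wild type and 207, 153 and 149 in deficient muscle, with a log2 fold change of -0.15 (95% interval -0.62 to 0.31, limma adjusted p = 0.756). The direction for Slc6a8 was therefore not shared by its probe sets, and their average gave 0.15 (adjusted p = 0.652).

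Creatine itself is made from arginine and glycine by Gatm, which forms guanidinoacetate, and by Gamt, which methylates it. Gatm read 121, 137 and 77.2 in wild type and 231, 131 and 137 in deficient muscle, where deficient replicate 1 stood alone above the rest. Its log2 fold change was 0.50 (SE 0.27, 95% interval -0.10 to 1.11, limma adjusted p = 0.353), and 0.26 without deficient replicate 1. Without wild type replicates 1 and 2 together it was 0.925. Gamt read 326, 266 and 116 in wild type and 129, 183 and 153 in deficient muscle. Wild type replicates 1 and 2, the libraries with hair follicle transcripts, were above all deficient values and wild type replicate 3 below them. The log2 fold change of Gamt was -0.46 (SE 0.33, 95% interval -1.20 to 0.28, limma adjusted p = 0.491). It turned to 0.37 when wild type replicates 1 and 2 were left out (adjusted p = 0.834, with the lone wild type library assumed to vary like the others). Within the libraries with Y-linked transcripts it was -0.87, and between the 2 without it was 0.36.

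Neither uptake nor synthesis passed the test, and uptake against synthesis did not separate the groups. Slc6a8 minus Gatm was 2.29, 1.84 and 2.50 in wild type and 1.58, 2.54 and 2.39 in deficient arrays (difference -0.04, exact permutation p = 0.9). The sign of this difference turned under quantile normalization (0.02), with a pseudocount of 32 (0.001) and without wild type replicate 1, wild type replicate 3 or deficient replicate 1 (up to 0.26).

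Ak1, the main cytosolic adenylate kinase of muscle, read 4772, 4235 and 3870 in wild type and 2109, 3546 and 3668 in deficient muscle by its brighter probe set. Every deficient value was below every wild type value, by a narrow margin in deficient replicate 3. The mean was 4292 ± 454 in wild type and 3108 ± 868 in deficient muscle. The log2 fold change of -0.50 (SE 0.21, 95% interval -0.98 to -0.02) did not pass (limma adjusted p = 0.242, unadjusted p = 0.0416), and it was -0.24 without deficient replicate 1. It was -0.71 within the libraries with Y-linked transcripts and -0.08 between the 2 without. The other Ak1 probe set was dim, between 18.0 and 37.9 in all arrays, with overlapping groups and a log2 fold change of -0.02, and the average of both gave -0.26.

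Ampd1, the AMP deaminase of skeletal muscle fibres, showed the largest fall of the 8 tested genes. It read 5763, 5704 and 5077 in wild type and 2288, 3444 and 2517 in deficient muscle, far apart and without overlap. The mean fell from 5515 ± 380 to 2750 ± 612, to 0.499 of wild type. The log2 fold change was -1.02 (SE 0.17, 95% interval -1.40 to -0.64, limma adjusted p = 0.0194). It was -1.03 within the libraries with Y-linked transcripts and -1.01 between the 2 without. The call was lost without wild type replicate 1 (adjusted p = 0.098) and without wild type replicate 2 (0.0876), and with no intensity trend (0.0599). Without both, 3 deficient libraries against the lone wild type replicate 3, the fold changes of Ampd1 and Ckmt2 were -0.90 and -0.64 with adjusted p = 0.447 and 0.511.

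Read against Ak1 on the same array, Ampd1 was lower in every deficient array than in any wild type array. Ampd1 minus Ak1 was 0.27, 0.43 and 0.39 in wild type and 0.12, -0.04 and -0.54 in deficient arrays, a difference of -0.52 without overlap (exact permutation p = 0.1, adjusted p = 0.2).

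**Figure D3:**
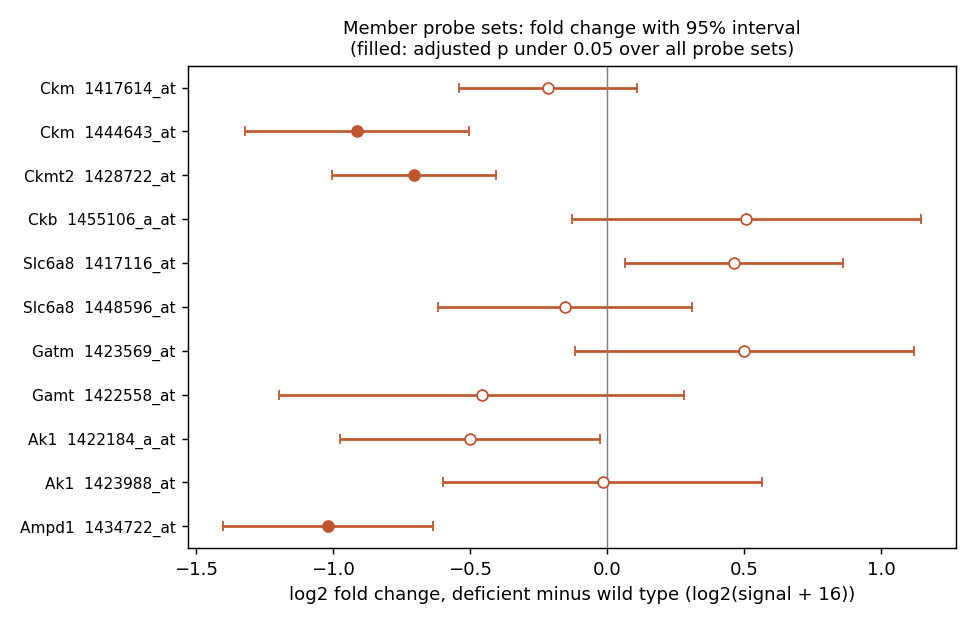
Log2 fold change, deficient minus wild type (horizontal axis), of the 11 probe sets above the dimness filter, with the 95% interval from limma, filled where the adjusted p over all 27003 probe sets was under 0.05. Ampd1, Ckmt2 and the dimmer Ckm probe set are filled and lie left of 0, and the Ckb, Gatm and Gamt intervals cross 0.

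Around these genes, 63 further genes of nucleotide and creatine metabolism were listed by function, of which 51 were tested. Their lists too were chosen with earlier results of these data known. Among these 51 genes 1 rose and 2 fell, where 1.30% of all genes rose and 1.47% fell. The other 48 missed the threshold. The median log2 fold change of the 51 was 0.02, equal to that of all genes. With 1 library left out, the 3 calls became 1 without any 1 of the wild type replicates and 6 without deficient replicate 3.

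The 2 that fell are the other enzymes of the purine nucleotide cycle, which returns the IMP made by AMP deaminase to AMP. Adssl1, the muscle adenylosuccinate synthetase, read 3543, 3337 and 4073 in wild type and 2130, 2057 and 2012 in deficient muscle (log2 fold change -0.81, SE 0.14, limma adjusted p = 0.0201). Adsl, the adenylosuccinate lyase, read 585, 586 and 638 in wild type and 312, 383 and 280 in deficient muscle (log2 fold change -0.87, SE 0.18, limma adjusted p = 0.039). In both, all deficient values lay below all wild type values. With Ampd1, each step of the cycle thus had a gene that fell. The Adssl1 call was lost without wild type replicate 1, 2 or 3 (adjusted p = 0.096, 0.0732 and 0.0667) or deficient replicate 2 (0.0739). The Adsl call was lost without every library except deficient replicate 3 (up to 0.143, without wild type replicate 2) and under median centring (0.0505). With no intensity trend both were lost (0.0706 for Adssl1 and 0.07 for Adsl).

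The rest of that list of 14 tested genes did not pass, and 10 of the 14 had a positive fold change (median 0.29). Named after their values were seen, the other AMP deaminases read higher in deficient muscle. Ampd3, the form of red blood cells and other tissues, read 124, 152 and 161 in wild type and 255, 241 and 384 in deficient muscle without overlap (log2 fold change 0.91, limma adjusted p = 0.0633). Ampd2 had a log2 fold change of 0.66 (adjusted p = 0.209). Adss, the adenylosuccinate synthetase of other tissues, had 0.35 (adjusted p = 0.319). Adk, which turns adenosine into AMP, read 1506, 1576 and 2003 in wild type and 895, 1096 and 1042 in deficient muscle (log2 fold change -0.73, adjusted p = 0.06), also without overlap.

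AMP also activates the AMP-activated protein kinase. Of 10 genes of its subunits and upstream kinase, none passed by limma (0 rose and 0 fell), with 3 at an unadjusted p under 0.05 (18.9% of all genes), and 4 had deficient values all below wild type (12.4% of all genes). Prkag3, a gamma subunit largely confined to skeletal muscle, had the smallest p. It read 1014, 884 and 678 in wild type and 336, 535 and 235 in deficient muscle (log2 fold change -1.24, SE 0.28, adjusted p = 0.0538). The others at an unadjusted p under 0.05, named after their values were seen, were Prkab2 (log2 fold change -1.03, adjusted p = 0.0608) and Prkaa2 (-0.71, adjusted p = 0.109).

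Among 10 partners of creatine kinase at the M-band and in the mitochondrial membranes, 1 rose, 0 fell and 9 did not pass. The gene that rose was Myom3, an M-band protein, which read 75.6, 65.3 and 73.3 in wild type and 216, 198 and 292 in deficient muscle (log2 fold change 1.51, SE 0.20, limma adjusted p = 0.00746). Its relatives Myom1 and Myom2 had 0.16 and 0.04. Of the 10, 5 had an unadjusted p under 0.05 and 5 had deficient values all below wild type, against 18.9% and 12.4% of all genes. Of the mitochondrial membrane partners, named after their values were seen, the porin genes Vdac1, Vdac2 and Vdac3 had log2 fold changes of -0.34, -0.40 and -0.51 (limma adjusted p = 0.186, 0.199 and 0.0895). The phosphate carrier gene Slc25a3 had -0.43 (adjusted p = 0.13), and the ADP/ATP carrier genes Slc25a4 and Slc25a5 had -0.27 and 0.20 (adjusted p = 0.273 and 0.704).

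By limma 0 of 9 other adenylate and nucleotide kinases passed, with 1 at an unadjusted p under 0.05. That was Ak3, a mitochondrial matrix kinase, at 822, 643 and 939 in wild type and 634, 476 and 413 in deficient muscle (log2 fold change -0.65, adjusted p = 0.146). By limma 0 of 8 genes supplying methyl groups and amino acids for creatine synthesis passed, with 0 at an unadjusted p under 0.05 and fold changes between -0.22 and 0.24. The smallest p was that of Shmt2, the mitochondrial serine hydroxymethyltransferase, at 134, 90.7 and 112 in wild type and 142, 126 and 133 in deficient muscle (log2 fold change 0.24, adjusted p = 0.555).

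**Figure D4:**
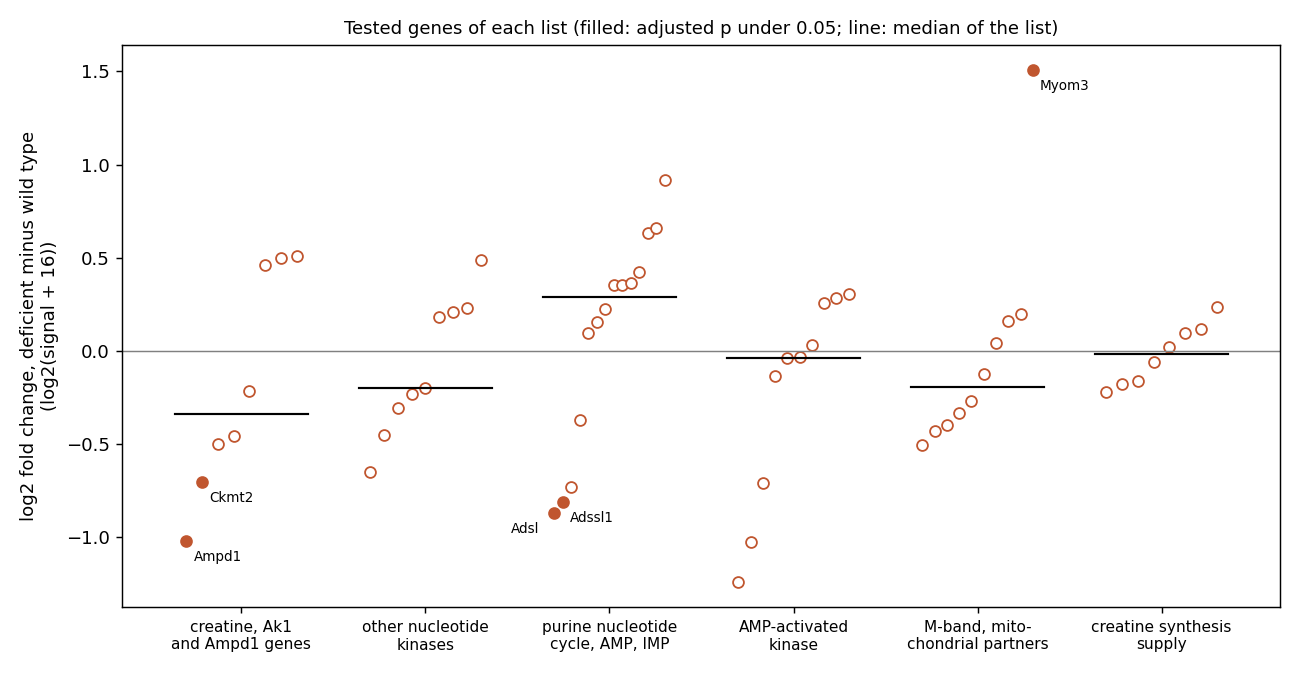
Log2 fold change (vertical axis) of each tested gene in 6 lists (horizontal axis), filled where the adjusted p over all 13105 genes was under 0.05, with a line for the median of each list. Ampd1, Ckmt2, Adssl1 and Adsl are the filled points below 0 and Myom3 the filled point above 0.

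The markers of the tissue bear on how these genes are read. By limma 0 of the 9 skeletal fibre markers passed, with 2 at an unadjusted p under 0.05. Of the 9, 7 had a negative fold change, against 47.5% of all genes. In 3 of the 9 every deficient value lay below every wild type value, as in 12.4% of all genes. The log2 fold changes of the 9 ran from -0.39 to 0.32 with a median of -0.16, beside -0.70 for Ckmt2 and -1.02 for Ampd1. Wild type means of the 9 ran from 6474 (Myh2) to 15019.5 (Tnni2), beside 7221 for Ckmt2 and 5515 for Ampd1. Whether the brightest probe sets show a change in full was not tested. Over all genes 1.30% rose and 1.47% fell. Markers of regenerating fibres and myoblasts rose in 5 of 8, with sums of 383 to 824 in wild type and 3758 to 7674 in deficient muscle. Macrophage markers rose in 1 of 8, with sums of 2729 to 3966 and 3866 to 11155. Brown adipocyte markers, of which 1 of 5 rose and 2 fell, summed to 1046 to 2703 in wild type and 508 to 614 in deficient muscle. Sums of fibroblast, smooth muscle, Schwann cell, endothelial, white adipocyte and erythroid markers overlapped between the groups, and those of lymphocytes were 154 to 203 against 86.0 to 139. A sum is led by its brightest markers, so single markers can differ where sums overlap. Of 6 fibroblast markers 0 passed by limma, 5 had a positive and 1 a negative fold change. An unadjusted p under 0.05 was reached by 3 of them, against 18.9% of all genes.

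Genes of the same array pattern were found by the root mean square difference between log2 profiles over the 6 arrays, each centred on its mean. Nearest to Ckmt2 were Yipf7, Apbb2, Alg3, the complex I gene Ndufb10 and Sod2, the superoxide dismutase of mitochondria, at 0.06 to 0.07. Of these, Yipf7 (log2 fold change -0.70, limma adjusted p = 0.0498) and Sod2 (-0.82, adjusted p = 0.0216) fell, where 1.47% of all genes fell. The genes were picked for likeness to Ckmt2, so their lower signal in deficient muscle followed from the choice. Nearest to Ckb were Snx7, Carhsp1, Prelid1, Adgra2 and Stk17b, at 0.05 to 0.07, and 0 of these 5 passed by limma, with adjusted p between 0.278 and 0.472. Nearest to the brighter Ckm probe set were Mmp17, Ccdc88c, Psmc2, Igkv14-111 and Atg101, at 0.04 to 0.06, and 0 of these 5 passed by limma, with adjusted p between 0.496 and 0.701. Igkv14-111 read 4.8 to 17.5 and Mmp17 17 to 33.4 over the 6 arrays, near the dimness filter of 13.97. The neighbours of Ckb and Ckm were likewise picked for likeness, so the direction of their fold changes followed from the choice. This is a likeness over 6 arrays that share their scaling.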

How the data were processed

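Hind limb muscle RNA of 3 wild type and 3 laminin alpha 2 chain deficient mice was hybridised to 1 array each, and groups came from the sample titles. The authors deposited linear signal intensity per probe set, by an algorithm that no label or header names. Each array had a mean of 100.00 once its lowest and highest 2% were trimmed, so arrays had been scaled alike. Values were taken as log2(signal + 16) without further normalization, because array medians differed by 0.226, under a limit of 0.5. The dimness filter dropped probe sets whose mean lay below the 40th percentile, a signal of 13.97. The test was limma (version 3.58.1, R version 4.3.3; lmFit, then eBayes with an intensity trend, two-sided), run over genes and over probe sets. Every adjusted p in the text is limma's unless a permutation test is named. On 20 simulated data sets of 13105 genes with 200 changed, 47.1% of 2-fold and 98.2% of 4-fold changes were recovered, and 6.20% of calls were false. The simulated noise was independent between genes and held no differences between libraries, so these rates need not hold for the real calls. The members and lists were chosen with earlier results of these data known. Named genes were the members, the called or, with none called, the smallest-p gene of each list, and the nearest profiles; others are said to be named after their values were seen. Alternatives covered scaling, pseudocount, filter, probe set choice, variance prior, blocks and libraries left out.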

Additional observations from a re-analysis of the deposited data

How the results depend on the processing

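Ckmt2 and Ampd1 kept their negative fold changes under all 18 alternatives, from -0.80 to -0.62 and from -1.19 to -0.90, with adjusted p from 0.00907 to 0.511 and 0.00463 to 0.447. With no filter, 214 genes in all, 1 of the 9 genes and 0 of their probe sets were called. Without the intensity trend it was 173, 0 and 0, and 1 of the further listed genes. Without wild type replicates 1 and 2 together it was 20 genes in all, 0, 0 and 0. With Y-linked transcripts as a block it was 1159 genes in all and 9 further listed genes. With 1 library left out the ranges were 65 to 665 genes in all, 0 to 2 of the 9, 0 to 3 of their probe sets and 1 to 6 further listed genes. Deviations of same-numbered samples correlated at 0.133, -0.058 and 0.31, and those of other-numbered samples at -0.309 to 0.206. These few values cannot settle whether replicate numbers pair the mice. The replicate block called 864 genes in all and 8 further listed genes, and the 9 genes kept their 2 calls, Ckmt2 and Ampd1. Slc6a8 relative to Gatm, -0.04, turned to 0.022 under quantile normalization and to 0.001 with a pseudocount of 32, and ran from -0.222 to 0.257 with 1 library left out. Gamt turned to 0.365 without wild type replicates 1 and 2. The extremes of 65 and 665 genes came without wild type replicate 1 and deficient replicate 3. The causes of these shifts were not tested. Signal over background limits Ckmt1 and the dim Ak1 probe set. Unlike readings of their probe sets limit Ckm and Slc6a8, and differences read against Ckm. The number of mice, 3 per group, limits all results.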
